A study of Cavia porcellus with 9 samples.

Results

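The genes described here belong to the families that supply the machinery that docks and fuses synaptic vesicles. They are the syntaxins, the SNAP25 and VAMP proteins, the syntaxin-binding proteins, the complexins, the synaptotagmins, the disassembly factors Nsf, Napa and Napb, and the vesicle proteins Syn1 to Syn3, Sv2a to Sv2c and Syp. They were chosen by a rule on gene names, from the symbols in the count table, and 62 symbols matched. The choice was made with earlier results of these data known. Of these, 61 passed the filter on low counts and are called the members below, out of 15469 genes that passed and 19962 in the table. The remaining symbol, Stx19, had 0 to 10 counts per library and 50 in all. By family, the members comprised 13 syntaxins, 3 genes of the SNAP25 family, 7 VAMPs, 7 syntaxin-binding proteins, 4 complexins, 17 synaptotagmins, 3 disassembly factors, 3 synapsins, 3 SV2 genes and Syp. The families also hold genes that act on other membranes, such as Stx5, Stx17, Stx18 and Vamp4. Counts over the members are therefore not counts of synaptic genes alone.

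Retinas came from male guinea pigs of the Dunkin-Hartley strain that lived under green, blue or white light on a 12:12 cycle for 8 weeks and were 12 weeks old at sampling. The series addresses how wavelength defocus bears on refractive development. Each light had 3 RNA-seq libraries: the green ones are titled 11od-B, 11od and 16os, the blue ones 2R-23od, 32od and 32os, and the white ones 6od, 6os and R-23od-B. They are called libraries 1, 2 and 3 of their light below, in that order.

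A vesicle fuses when SNARE proteins on the vesicle (VAMPs) and on the target membrane (syntaxins and SNAP25) zip into a bundle that pulls the membranes together. Syntaxin-binding proteins guide the assembly, complexins hold the bundle ready, synaptotagmins release it when calcium enters, and the ATPase NSF with its SNAP adaptors takes the spent bundle apart. Photoreceptors and bipolar cells release glutamate at ribbon synapses, which in the mouse use syntaxin 3 and complexins 3 and 4 in place of the forms of conventional synapses.

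The libraries held 62155041 to 74979806 counts, and each light's 3 libraries carry 2 animal numbers. The p-values therefore measure the spread between libraries, part of which is a spread within an animal. All 8 rod markers were detected, with a summed level of 63459 to 81061 CPM in green, 74877 to 82905 CPM in blue and 74224 to 82035 CPM in white, where CPM stands for counts per 1000000 of a library's total after TMM scaling. Summed over 10 markers, the pigment epithelium, the layer behind the retina, ran from 45.9 to 368 CPM in green, from 274 to 408 CPM in blue and from 96.4 to 416 CPM in white. The 11 lens markers summed to 73.0 to 90.2 CPM in green, 49.0 to 83.1 CPM in blue and 30.1 to 69.4 CPM in white. All 10 and all 11 markers passed the filter, while Tyrp1, Dct, Cryba1, Crybb1 and Mip were at 0 in at least 1 library. The part of the lens level in the members' differences was not tested.

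No member differed between lights at an adjusted p under 0.05, in any pairwise comparison or in the joint test of the 3 lights (edgeR quasi-likelihood test, adjusted over all 15469 genes). The smallest adjusted p of a member was 0.840 for green against white, 0.935 for blue against white, 0.654 for green against blue and 0.777 in the joint test. Of all genes tested, 1 passed in green against white (0.00646%), 1 in blue against white (0.00646%), 0 in green against blue (0%) and 1 in the joint test (0.00646%). DESeq2 and voom also called 0 members in each pairwise comparison. In whole retina, fewer cells of a type and less RNA per cell cannot be told apart, so a level speaks for the tissue and not for a synapse.

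Without adjustment, 5 members had a p under 0.05 in green against white (8.20% of 61, against 5.81% of all genes): Cplx4, Syt13 and Stx11 were higher in green, and Stx5 and Vamp8 lower. For blue against white there was 1, Syt5 (1.64%, against 4.45% of all genes), for green against blue there were 2, Syt5 and Cplx4 (3.28%, against 7.18%), and in the joint test the same 2 genes stood under 0.05, against 5.94% of all genes. Libraries did not overlap between green and white for 8 members (13.1%, against 10.1% of all genes), between blue and white for 4 (6.56%, against 9.9%) and between green and blue for 6 (9.84%, against 14.2%). The count of 5 in green against white changed with the libraries used. It was 2 without green library 1, 3 without green library 2, 3 without white library 1 and 1 without white library 2. Leaving out a library also leaves fewer libraries to estimate the spread, and the share of all genes is not set beside these counts. The count of 1 in blue against white became 3 without blue library 1, 2 without blue library 2 and 4 without white library 2. The count of 2 in green against blue became 1 without green library 1, 5 without blue library 1, and 0 without blue library 2 or 3.

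Most fitted differences were small, though over the members they ran from -0.60 to 1.31 on the log2 scale in green minus white. The range was -1.04 to 1.06 in blue minus white and -0.55 to 0.93 in green minus blue. The median log2 difference over the members was 0.03 in green minus white (all genes 0.01), 0.01 in blue minus white (all genes 0.00) and 0.01 in green minus blue (all genes 0.00). Without regard to sign, the median size was 0.08 on the log2 scale in green minus white, 0.08 in blue minus white and 0.09 in green minus blue, while all genes had 0.11, 0.10 and 0.12. Members lay above 0 in 40 of 61 cases for green minus white (65.6%, all genes 52.4%), in 33 for blue minus white (54.1%, all genes 51.5%) and in 35 for green minus blue (57.4%, all genes 49.4%). The excess in green did not hold throughout: without white library 2, 27 of 61 members lay above 0 in green minus white, and with counts summed per animal number 28 of 61 did, with a median log2 difference of -0.01 in both cases. Green minus white and blue minus white share the white libraries, so a white library that stands apart enters both.

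With libraries taken as separate, the data bound most members closely. Part of the spread behind the intervals is a spread within an animal, so they speak for libraries and not for animals. The 95% interval of the difference stayed within 1.5-fold either way for 51 of 61 members in green against white (65.8% of all genes did), for 49 in blue against white (65.9% of all genes) and for 48 in green against blue (64% of all genes). In all comparisons the members with wider intervals were Stx11, Vamp5, Vamp7, Vamp8, Stxbp5l, Syt10, Syt14, Syt15, Syt16 and Syt8. Stxbp3 and Sv2c joined them in both comparisons that involve blue, and Syt4 in green against blue. Apart from Stxbp3, Stxbp5l, Syt4 and Sv2c, these averaged under 4 CPM over the 9 libraries.

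**Figure D1:**
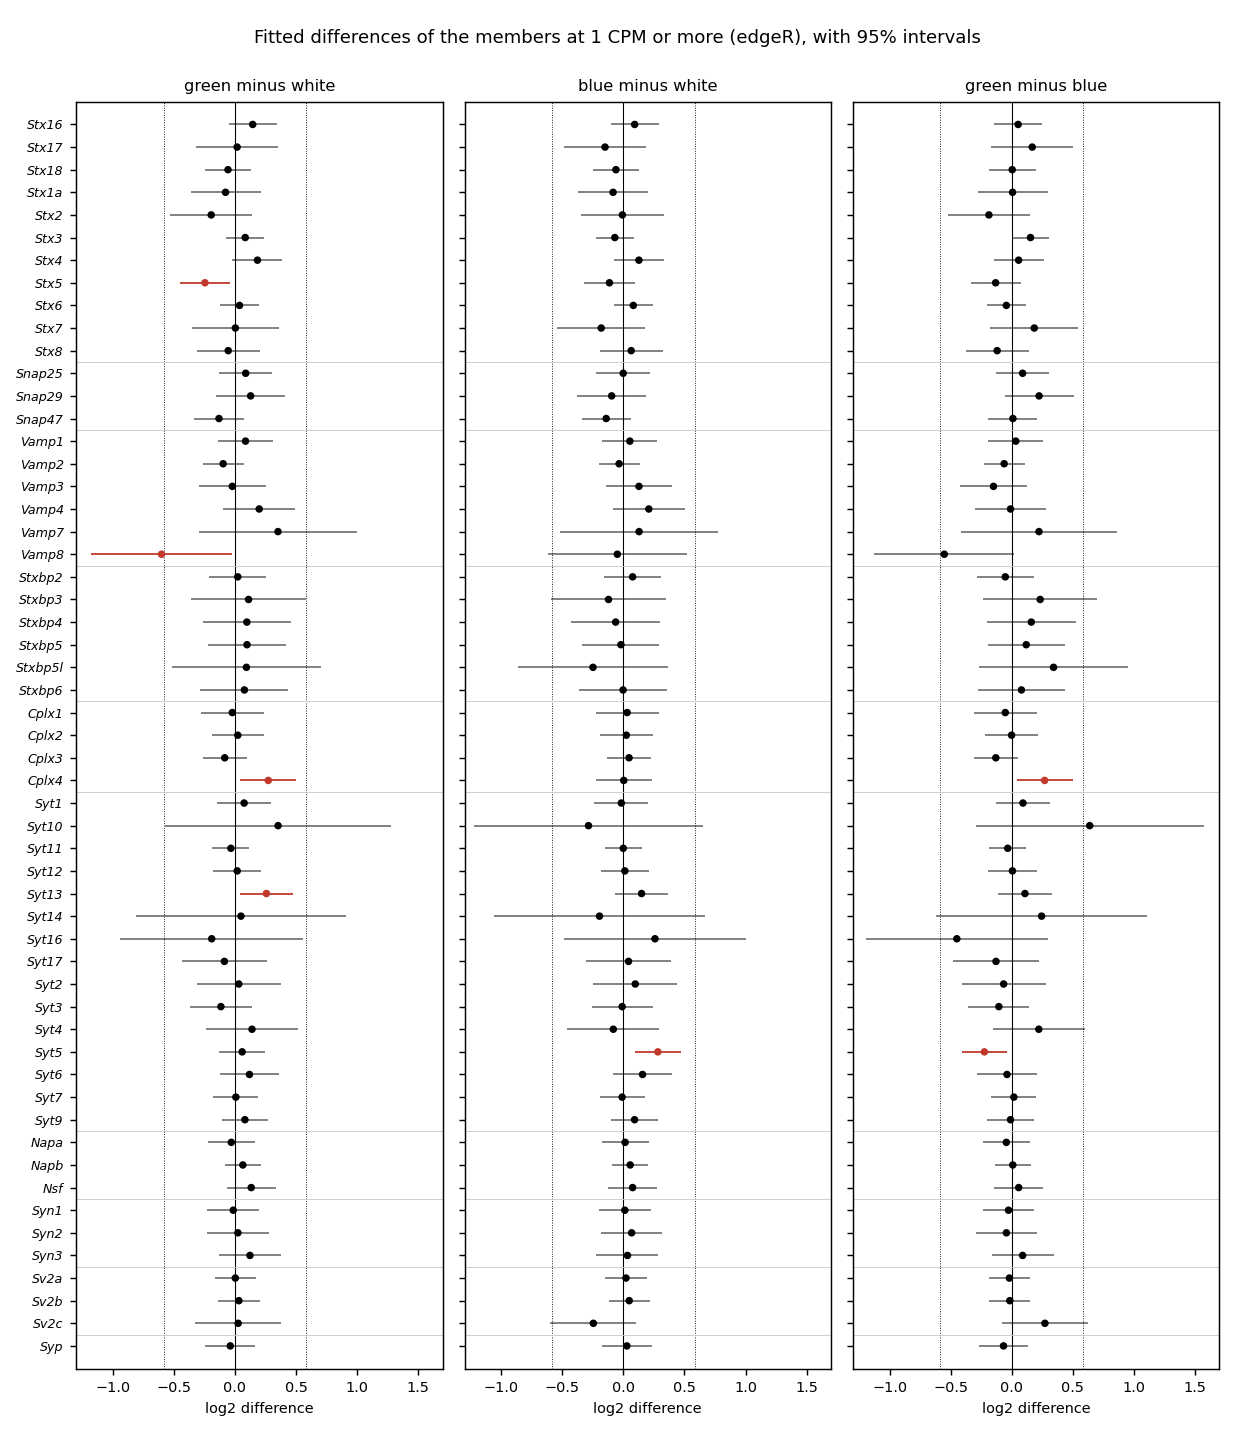
Fitted log2 differences (points, horizontal axis) of 55 members at a mean of 1 CPM or more, with 95% intervals, with green minus white at left, blue minus white in the middle and green minus blue at right; dotted lines mark 1.5-fold either way and red marks an unadjusted p under 0.05. Most intervals include 0 and stay between the dotted lines, and no member passed after adjustment.

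Syntaxins are the SNAREs of the target membrane. Of the 13, 7 lay above 0 in green minus white, 5 in blue minus white and 9 in green minus blue, and none passed the adjusted test. Stx1a, a syntaxin of conventional synapses, had 13.7, 17.8 and 14.1 CPM in green libraries 1, 2 and 3, 14.0, 16.8 and 14.4 CPM under blue light, and 16.1, 15.2 and 16.8 CPM under white light. The 3 lights overlapped, with log2 differences of -0.08 in green minus white, -0.08 in blue minus white and 0.01 in green minus blue.

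Stx3, the ribbon syntaxin in the mouse, had 269, 292 and 292 CPM under green light, 242, 258 and 267 CPM under blue light, and 273, 267 and 265 CPM under white light. All green libraries lay above all blue ones, and the white ones overlapped with both. The log2 difference was 0.15 ± 0.07 (SE) in green minus blue (edgeR adjusted p = 0.697), 0.08 ± 0.07 in green minus white and -0.07 ± 0.07 in blue minus white. Its interval for green minus blue ran from -0.00 to 0.31 on the log2 scale.

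Stx5, the syntaxin of transport between the endoplasmic reticulum and the Golgi, had 91.5, 108 and 112 CPM under green light, 108, 124 and 109 CPM under blue light, and 118, 126 and 125 CPM under white light. Each green library lay below each white one, and blue overlapped with both. Green averaged 104 ± 10.8 CPM and white 123 ± 4.60 CPM (SD, n = 3 each), a log2 difference of -0.25 ± 0.09 that had the smallest p of any member in that comparison and did not pass (edgeR adjusted p = 0.840). Green library 1 was the lowest of all, and without it the difference was -0.17.

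Stx11, known in humans for the release of granules from cytotoxic lymphocytes, was sparse, with 56, 78 and 48 counts under green light, 37, 40 and 34 counts under blue light, and 42, 23 and 20 counts under white light. In CPM it had 0.718, 1.22 and 0.685 under green light, 0.519, 0.542 and 0.499 under blue light, and 0.619, 0.332 and 0.322 under white light. Green lay above blue and white in every library, while blue and white overlapped. The log2 difference of 1.03 ± 0.43 in green minus white did not pass (edgeR adjusted p = 0.852), and without green library 2 it was 0.72. In green minus blue the difference was 0.74 ± 0.42 (adjusted p = 0.744) and in blue minus white 0.29 ± 0.43.

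Stx4, a syntaxin of the plasma membrane, had 27.3, 24.27 and 27.5 CPM under green light, 24.2, 26.7 and 25.1 CPM under blue light, and 22.4, 24.26 and 22.97 CPM under white light. Green lay above white in all libraries, though green library 2 and white library 2 were nearly equal, with a log2 difference of 0.18 ± 0.09 (edgeR adjusted p = 0.866). Another 7 syntaxins differed by -0.19 to 0.18 on the log2 scale over the 3 comparisons. Among them Stx16, of the trans-Golgi network, did not overlap between green (94.9 to 99.4 CPM) and white (82.0 to 94.0 CPM), nor Stx6, of the same compartment, between blue (61.3 to 65.7 CPM) and white (58.2 to 61.2 CPM). Stx2, another plasma membrane syntaxin, did not overlap between green (8.92 to 10.4 CPM) and blue (10.5 to 11.0 CPM). The remaining 4 overlapped between all lights. Stx7, an endosomal syntaxin, ran from 7.53 to 9.88 CPM under green light, 6.82 to 8.50 CPM under blue light and 7.15 to 9.61 CPM under white light. Stx8, an endosomal partner of it, ran from 15.6 to 18.0 CPM under green light, 16.3 to 19.1 CPM under blue light and 15.2 to 18.3 CPM under white light. Stx17, which acts on autophagosomes, ran from 9.26 to 12.3 CPM under green light, 8.85 to 10.8 CPM under blue light and 10.1 to 12.6 CPM under white light. All 3 act on intracellular membranes. Stx18, of the endoplasmic reticulum, ran from 51.4 to 59.6 CPM under green light, 52.4 to 57.3 CPM under blue light and 53.9 to 59.7 CPM under white light.

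The SNAP25 family supplies the second SNARE of the target membrane. Snap25 itself, the neuronal form, had 802, 696 and 660.1 CPM under green light, 715, 623 and 690.4 CPM under blue light, and 760.1, 632 and 638 CPM under white light. The lights overlapped, and green minus white was 0.09 ± 0.10 on the log2 scale. Snap29, which acts in the fusion of autophagosomes with lysosomes, had 10.2, 11.2 and 10.8 CPM under green light, 9.27, 9.32 and 9.01 CPM under blue light, and 10.7, 10.3 and 8.40 CPM under white light. Green lay above blue in all libraries with a log2 difference of 0.22 ± 0.13 that did not pass (edgeR adjusted p = 0.746). Snap47, a relative found on intracellular membranes, had 139.7, 166 and 173 CPM under green light, 150.0, 165 and 159 CPM under blue light, and 163, 180.0 and 180.4 CPM under white light. Its level overlapped between each colour and white, at -0.13 ± 0.09 in green minus white and -0.14 ± 0.09 in blue minus white (adjusted p = 0.946 and 1.0, edgeR).

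VAMPs are the SNAREs of the vesicle. Of 7 members, 3 lay above 0 in green minus white, 4 in blue minus white and 3 in green minus blue. Vamp2, the main synaptic form, had 819, 973 and 905 CPM under green light, 914, 966 and 934 CPM under blue light, and 935, 1007 and 943 CPM under white light. Vamp1, the other synaptic form, had 146, 120.3 and 122 CPM under green light, 143, 122 and 114 CPM under blue light, and 123, 120.4 and 122 CPM under white light. Both overlapped between all lights, with differences from -0.10 to 0.09 on the log2 scale and standard errors of 0.08 and 0.10.

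Vamp8, an endosomal and lysosomal VAMP of secretory and epithelial cells, had 2.44, 2.603 and 3.27 CPM under green light, 2.55, 4.60 and 5.03 CPM under blue light, and 3.88, 5.04 and 3.68 CPM under white light. Every green library lay below every white one, while blue library 1 lay with the green libraries. The log2 difference was -0.60 ± 0.26 in green minus white (edgeR adjusted p = 0.852), -0.55 ± 0.26 in green minus blue (edgeR adjusted p = 0.705) and -0.05 ± 0.26 in blue minus white. Vamp4, of the trans-Golgi network, had 58.2, 47.5 and 50.6 CPM under green light, 60.4, 44.3 and 52.7 CPM under blue light, and 51.8, 40.4 and 44.1 CPM under white light. Its libraries overlapped, at 0.20 ± 0.13 in green minus white and 0.21 ± 0.13 in blue minus white (adjusted p = 0.938 and 1.0, edgeR). The remaining 3 VAMPs overlapped between all lights. Vamp3, the cellubrevin of recycling endosomes, ran from 13.2 to 16.5 CPM under green light, 15.9 to 17.8 CPM under blue light and 13.6 to 16.6 CPM under white light. Vamp7, a lysosomal and endosomal form, ran from 1.496 to 2.49 CPM under green light, 1.36 to 1.94 CPM under blue light and 1.13 to 1.87 CPM under white light. Vamp5 ran from 0.187 to 0.385 CPM under green light, 0.0734 to 0.323 CPM under blue light and 0.159 to 0.660 CPM under white light.

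**Figure D2:**
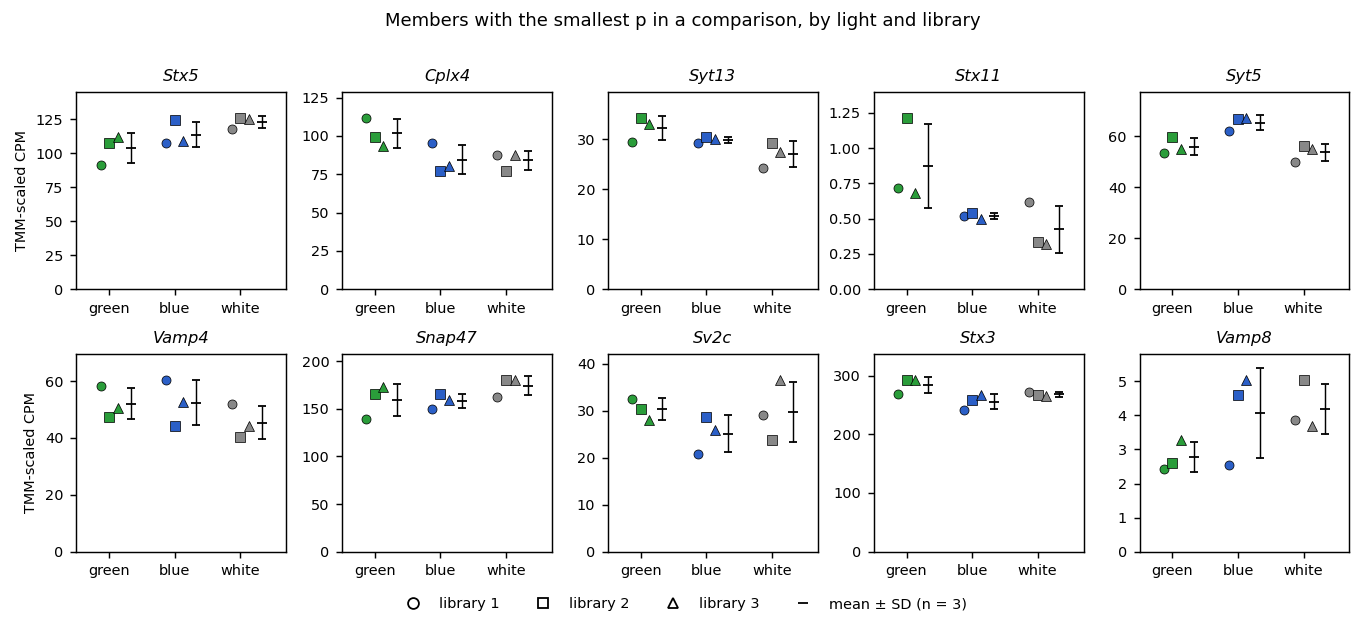
TMM-scaled CPM (vertical axis, starting at 0) in each library of green, blue and white light for the members with the 4 smallest unadjusted p in each pairwise comparison; bars give mean ± SD (n = 3). Stx11 and Vamp8 lie at low levels with wide spread; Syt5 in blue lies above green and white, and Cplx4 in green above white, in every library.

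Syntaxin-binding proteins steer SNARE assembly. All 7 lay above 0 in green minus white, by 0.02 to 0.11 on the log2 scale, 2 of 7 in blue minus white and 6 of 7 in green minus blue, and none had an unadjusted p under 0.05 in any comparison. The count of 7 was 2 without white library 2, 3 without green library 1, 3 without both libraries titled -B, 5 without green library 2, and 5 with counts summed per animal number or with the pigment epithelium level as a covariate. Stxbp5l, which encodes a tomosyn, an inhibitor of SNARE assembly, had 24.8, 17.1 and 13.5 CPM under green light, 14.7, 14.4 and 14.6 CPM under blue light, and 23.6, 10.01 and 18.45 CPM under white light. The blue libraries lay close together while green and white spread widely, and green minus blue was 0.34 ± 0.28 on the log2 scale. The other tomosyn gene, Stxbp5, ran from 34.5 to 45.9 CPM in green, 33.6 to 43.0 CPM in blue and 32.0 to 43.4 CPM in white. Another 4 genes of the family overlapped between all lights as well. Stxbp2, known in humans for granule release from lymphocytes, ran from 48.7 to 54.3 CPM under green light, 47.8 to 58.5 CPM under blue light and 46.0 to 55.7 CPM under white light. Stxbp3 ran from 7.64 to 13.6 CPM under green light, 8.08 to 10.2 CPM under blue light and 7.83 to 11.3 CPM under white light. Stxbp4 ran from 21.6 to 28.9 CPM under green light, 18.3 to 24.4 CPM under blue light and 18.7 to 26.98 CPM under white light. Both Stxbp3 and Stxbp4 were highest in green library 1. Stxbp6, which encodes amisyn, ran from 19.2 to 31.0 CPM under green light, 21.6 to 24.2 CPM under blue light and 19.6 to 25.2 CPM under white light.

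Complexins clamp and prime the SNARE bundle, and the family splits by synapse type in the retina of the mouse. The conventional form Cplx1 had 166, 182 and 159.6 CPM under green light, 146, 193 and 187 CPM under blue light, and 156, 166 and 193 CPM under white light. Cplx2, the other conventional form, had 524, 604 and 541 CPM under green light, 485, 605 and 581 CPM under blue light, and 515, 537 and 591 CPM under white light. Both overlapped between all lights, with differences from -0.05 to 0.03 on the log2 scale.

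Of the ribbon forms, Cplx3 had 803, 908 and 892 CPM under green light, 869, 1007 and 973 CPM under blue light, and 872, 965 and 921 CPM under white light. Its groups overlapped, at -0.08 ± 0.08 in green minus white and -0.13 ± 0.08 in green minus blue (edgeR adjusted p = 0.971 and 0.766). Cplx4 had 112, 99.5 and 93.8 CPM under green light, 95.2, 77.4 and 80.6 CPM under blue light, and 87.83, 77.0 and 87.80 CPM under white light. Green lay above white in every library and overlapped with blue only through blue library 1, and blue and white overlapped. Green averaged 102 ± 9.28 CPM, blue 84.4 ± 9.49 CPM and white 84.2 ± 6.23 CPM (SD, n = 3 each). The log2 difference of Cplx4 was 0.27 ± 0.10 in green minus white (edgeR adjusted p = 0.840), 0.27 ± 0.10 in green minus blue (edgeR adjusted p = 0.654) and 0.00 ± 0.10 in blue minus white, and it did not pass.

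Synaptotagmins bind calcium, or in some members only membranes, and 12 of 17 lay above 0 in green minus white, 9 in blue minus white and 9 in green minus blue. The 12 became 7 without white library 2 and 8 with counts summed per animal number. Syt1, the fast calcium sensor of release, had 786, 758 and 638 CPM under green light, 726, 629.6 and 692 CPM under blue light, and 763, 626 and 683 CPM under white light. The lights overlapped, at 0.08 ± 0.10 in green minus white and -0.02 ± 0.10 in blue minus white on the log2 scale.

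Syt5, a calcium-binding form, had 53.4, 59.6 and 54.9 CPM under green light, 61.98, 66.7 and 67.4 CPM under blue light, and 49.9, 56.1 and 55.2 CPM under white light. Each blue library lay above every green and every white library, and green and white overlapped. Blue averaged 65.3 ± 2.94 CPM and white 53.7 ± 3.36 CPM (SD, n = 3 each), a log2 difference of 0.28 ± 0.08 with the smallest p of any member in blue against white (edgeR adjusted p = 0.935). The difference was -0.22 ± 0.08 in green minus blue (edgeR adjusted p = 0.654) and 0.06 ± 0.08 in green minus white. None of these passed.

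Syt13, a form that lacks calcium binding, had 29.5, 34.3 and 32.9 CPM under green light, 29.3, 30.5 and 29.9 CPM under blue light, and 24.2, 29.2 and 27.5 CPM under white light. All green and all blue libraries lay above all white ones, with blue library 1 and white library 2 next to each other. The log2 difference was 0.26 ± 0.10 in green minus white (edgeR adjusted p = 0.844), 0.15 ± 0.10 in blue minus white (edgeR adjusted p = 1.0) and 0.11 ± 0.10 in green minus blue. Syt6, another synaptotagmin, had 30.7, 29.7 and 25.7 CPM under green light, 28.5, 29.6 and 30.4 CPM under blue light, and 27.2, 22.9 and 29.2 CPM under white light, which overlapped. Syt9 did not overlap between green (53.5 to 56.1 CPM) and white (48.5 to 53.2 CPM), nor Syt10 between green (1.26 to 1.79 CPM) and blue (0.895 to 1.01 CPM). Syt7, a slow calcium sensor, ran from 75.3 to 85.1 CPM in green, from 75.5 to 83.8 CPM in blue and from 75.2 to 84.9 CPM in white.

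Another 8 members of the family overlapped between all lights. Syt2, a fast calcium sensor like Syt1, ran from 29.7 to 35.4 CPM under green light, 25.0 to 41.1 CPM under blue light and 32.1 to 32.8 CPM under white light. Syt3 ran from 21.8 to 25.9 CPM under green light, 25.8 to 26.9 CPM under blue light and 22.7 to 29.4 CPM under white light. Syt4, a form with reduced calcium binding, ran from 83.5 to 117 CPM under green light, 71.8 to 87.2 CPM under blue light and 65.7 to 102 CPM under white light. The lowest of these values for Syt4 came from white library 2. Syt11 ran from 306 to 314 CPM under green light, 312 to 322 CPM under blue light and 295 to 336 CPM under white light. Syt12 ran from 63.2 to 70.4 CPM under green light, 60.9 to 69.3 CPM under blue light and 61.5 to 71.2 CPM under white light. Syt17 ran from 5.52 to 6.41 CPM under green light, 5.79 to 7.85 CPM under blue light and 5.98 to 6.59 CPM under white light. Syt8, with 2 to 13 counts per library, and Syt15, with 0 to 26, had the fewest counts of the family. Syt8 ran from 0.115 to 0.157 CPM under green light, 0.0281 to 0.176 CPM under blue light and 0.101 to 0.209 CPM under white light. Syt15 ran from 0.154 to 0.328 CPM under green light, 0 to 0.365 CPM under blue light and 0 to 0.161 CPM under white light. The libraries of Syt15 at 0 were blue library 2 and white library 2.

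NSF and its adaptors recycle the SNAREs. Nsf had 381, 374 and 335 CPM under green light, 378, 322 and 347 CPM under blue light, and 365, 307 and 322 CPM under white light, with 0.13 ± 0.09 in green minus white on the log2 scale (edgeR adjusted p = 0.946). Napa, which encodes alpha-SNAP, had 253, 303 and 304 CPM under green light, 283, 308 and 296 CPM under blue light, and 273, 309 and 296 CPM under white light. Napb, the beta form of neurons, had 377, 411 and 379 CPM under green light, 384, 386 and 390.3 CPM under blue light, and 357, 374 and 385 CPM under white light. All 3 genes overlapped between all lights, and Napb varied little, with a coefficient of variation of 3.80% over the 9 libraries.

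Synapsins tether vesicles in the reserve pool of conventional synapses and are absent from ribbon terminals in mammals studied. Syn1 had 208, 265 and 222 CPM under green light, 230.0, 242 and 236 CPM under blue light, and 217, 234 and 252 CPM under white light. Syn2 had 39.1, 42.6 and 36.7 CPM under green light, 39.6, 40.4 and 42.0 CPM under blue light, and 33.7, 37.2 and 45.5 CPM under white light. Neither separated the lights, and the 3 synapsins, Syn3 included, differed by -0.04 to 0.12 on the log2 scale over the comparisons. Syn3 ran from 18.8 to 20.6 CPM under green light, 17.5 to 19.8 CPM under blue light and 16.3 to 20.9 CPM under white light.

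SV2 proteins are glycoproteins of the vesicle membrane. Sv2a had 541, 638 and 571 CPM under green light, 562, 611 and 601 CPM under blue light, and 565, 582 and 600.2 CPM under white light. Sv2b, a form of ribbon terminals in the mouse, had 521, 629 and 576 CPM under green light, 577, 587 and 581 CPM under blue light, and 576, 568 and 544 CPM under white light. Blue did not overlap with white for Sv2b, by a difference of 0.05 ± 0.08 on the log2 scale (edgeR adjusted p = 1.0). Sv2c had 32.6, 30.4 and 27.9 CPM under green light, 20.8, 28.6 and 26.0 CPM under blue light, and 29.1, 23.7 and 36.5 CPM under white light. Its difference of -0.25 ± 0.16 in blue minus white did not pass (edgeR adjusted p = 1.0) and was -0.08 without white library 3.

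Syp encodes synaptophysin, the abundant vesicle membrane protein that binds VAMP. It had 1622, 2023 and 1920.3 CPM under green light, 1833, 1999.6 and 1998 CPM under blue light, and 1763, 1906 and 2047 CPM under white light. The lights overlapped, at -0.04 ± 0.09 in green minus white and 0.03 ± 0.09 in blue minus white. Summed over all members, the level was 12025 ± 671 CPM in green, 12090 ± 294 CPM in blue and 11936 ± 195 CPM in white (SD, n = 3 each), so the group means differed by less than the SD of the green libraries.

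**Figure D3:**
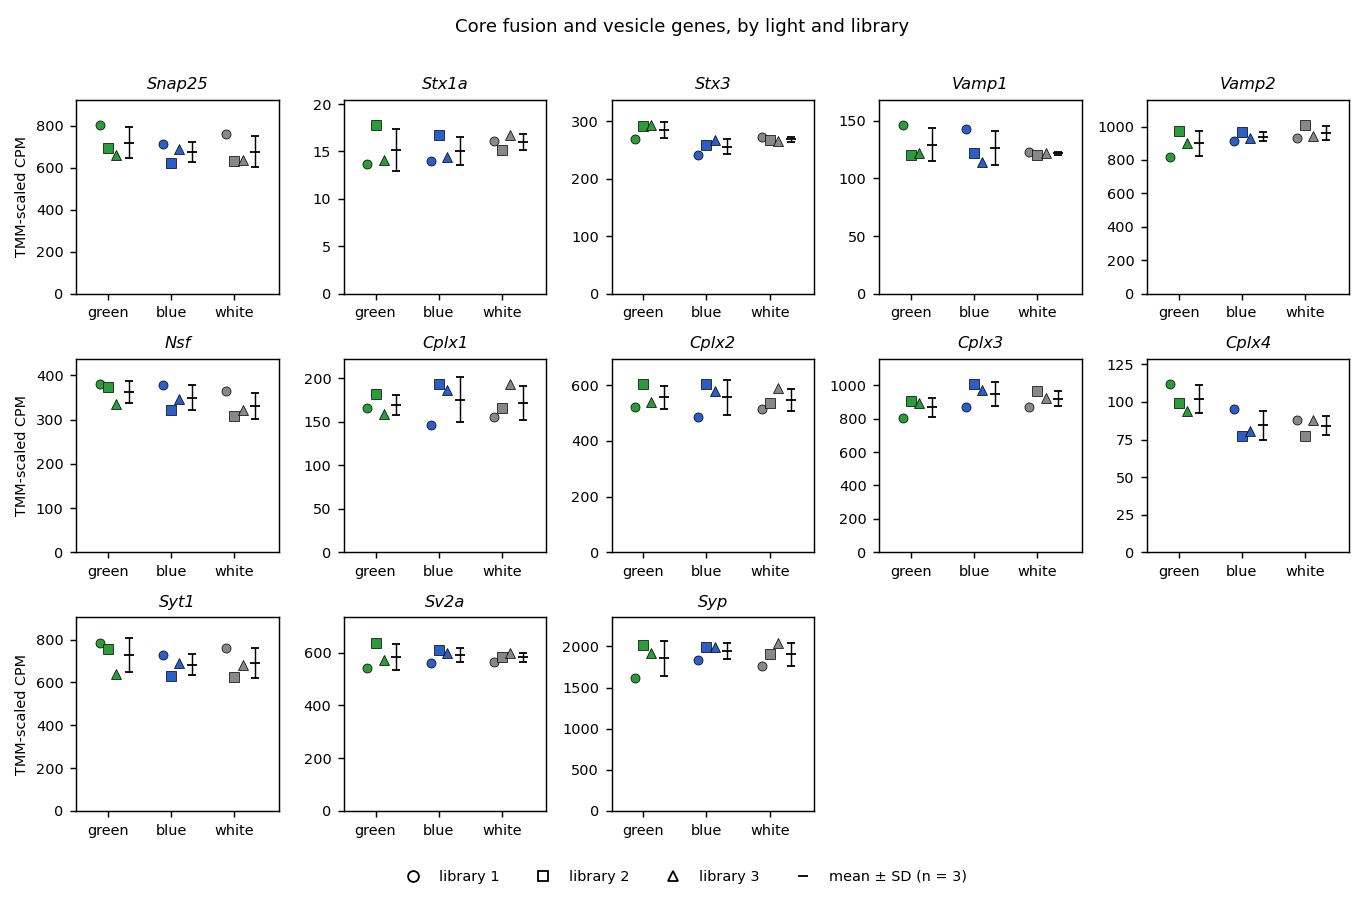
TMM-scaled CPM (vertical axis, starting at 0) of 13 core fusion and vesicle genes in each library of green, blue and white light; bars give mean ± SD (n = 3). The 3 lights overlap for most of these genes; Cplx4 in green against white and Stx3 in green against blue do not overlap.

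Levels varied less over the 9 libraries for the members than for genes at large, with a median coefficient of variation of 8.98% against 12.6% over all genes tested. The members also had more counts, with a median level of 49.99 CPM against 19.8 CPM. Stx6 had the lowest coefficient of variation at 3.48%, followed by Syt11 at 3.66%. At 1 CPM or more, the most variable members were Syt10 at 35.3%, Syt16 at 34.7%, Syt14 at 34.2%, Stxbp5l at 28.6% and Vamp8 at 28.4%.

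Of these, Syt10 had 1.48, 1.79 and 1.26 CPM under green light, 1.01, 0.895 and 0.998 CPM under blue light, and 1.71, 0.433 and 1.40 CPM under white light, with white library 2 far below the rest. Syt14, a form without calcium binding, had 3.46, 2.24 and 1.61 CPM under green light, 2.09, 1.72 and 2.38 CPM under blue light, and 3.29, 1.07 and 2.73 CPM under white light. Syt16, its close relative, had 2.24, 2.42 and 1.64 CPM under green light, 4.42, 2.31 and 1.88 CPM under blue light, and 2.71, 2.83 and 1.64 CPM under white light. White library 2 was the lowest of 9 for Syt10 and Syt14, and blue library 1 the highest for Syt16. Without blue library 1 the log2 difference of Syt16 in blue minus white was -0.20, against 0.26 ± 0.34 with it.

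Green library 1 and white library 2 held more of the extreme values than any other library. Green library 1 was the highest of 9 for 15 members and the lowest for 14 (24.6% and 22.95%, against 16.9% and 19.1% of all genes). White library 2 was the lowest for 13 members (21.3%, against 16.7% of all genes) and the highest for 6 (9.84%, against 14.3% of all genes). The genes Vamp7, Stxbp5, Stxbp5l, Cplx4, Syt1, Syt14, Syt4, Syt6 and Nsf peaked in green library 1 and were lowest in white library 2, 9 of 61 or 14.8%, against 7.71% of all genes. The reverse held for Stx5, Vamp2, Vamp8 and Napa, 4 of 61, against 1075 of all 15469 genes. Marker sums also differed between green library 1 and white library 2. Pigment epithelium markers summed to 66.1 CPM and 416 CPM in them, and rod markers to 63459 CPM and 82035 CPM. Apart from the low rod sum of green library 1, other libraries came near or went beyond these sums. Pigment epithelium markers summed to 45.9 CPM in green library 3 and 408 CPM in blue library 3, and rod markers to 82905 CPM in blue library 2. Green library 3 was the highest for 2 members and the lowest for 2 (3.28% each, against 9.71% and 8.11% of all genes). The part of these marker levels in the extreme values was not tested. With the pigment epithelium level as a covariate, green minus white was 0.25 for Cplx4, 0.33 for Syt13, 1.10 for Stx11, -0.25 for Stx5 and -0.60 for Vamp8. In that fit 2 members, in place of 5, had an unadjusted p under 0.05, and the smallest adjusted p of a member was 0.9998 (edgeR). A covariate leaves less to estimate the spread, and the share of all genes is not set beside this count. The part of the rod level in the green minus white differences was not tested.

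**Figure D4:**
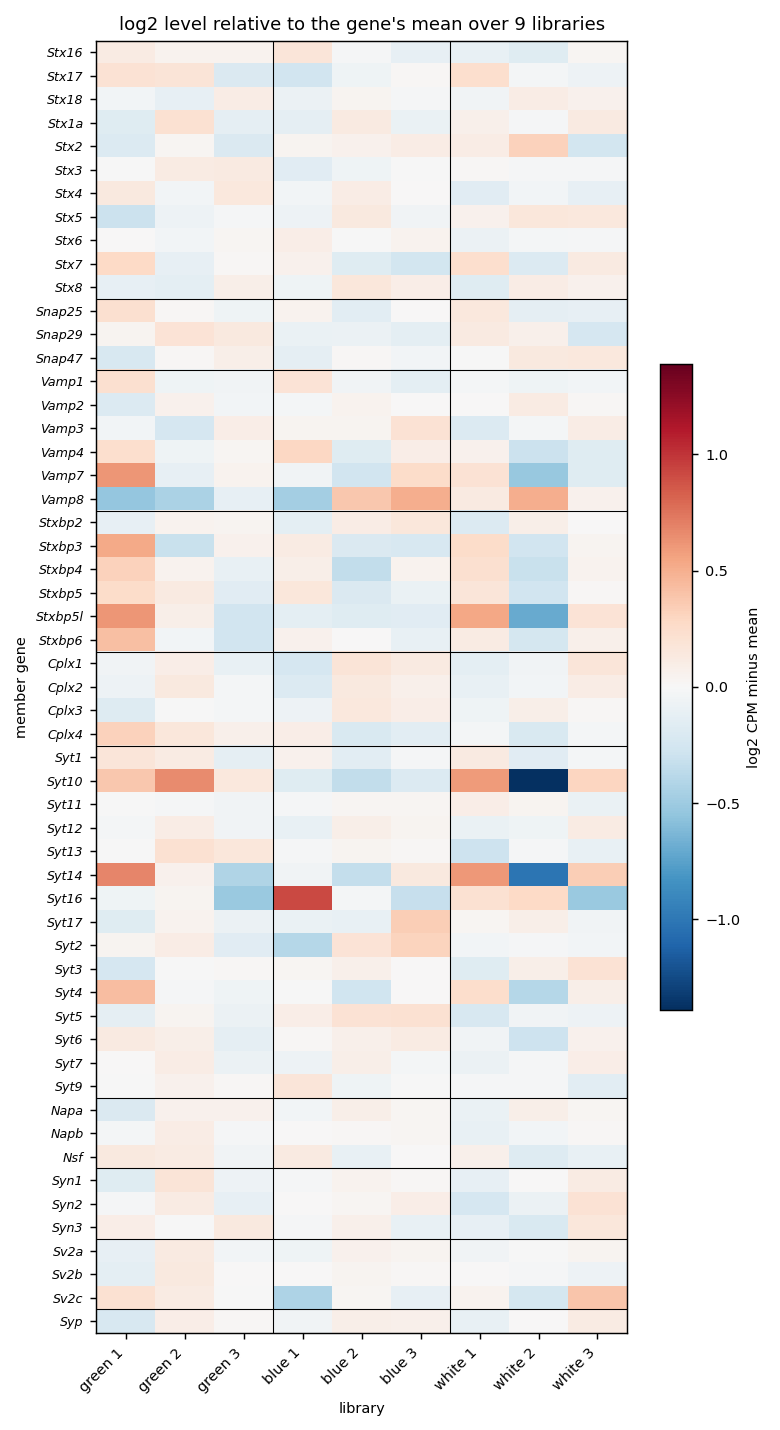
Log2 level of 55 members at a mean of 1 CPM or more (rows, by family) relative to its own mean over the 9 libraries (columns: green 1 to 3, blue 1 to 3, white 1 to 3); red is above and blue below the mean. Columns of a light do not share a pattern, and the deepest cell is Syt10 in white library 2.

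Over the members, libraries from the same light lay about as far apart as libraries from different lights. The median absolute log2 difference over the 61 members averaged 0.14 for the 3 pairs that share an animal number, 0.16 for the 6 other pairs within a light and 0.15 for the 27 pairs between lights. Blue libraries 2 and 3, the right and left eye of number 32, were the closest pair at 0.07. White libraries 1 and 2, the right and left eye of number 6, lay 0.15 apart, with 9 members over 0.5 on the log2 scale. For Stxbp5l that eye pair differed by 1.23 on the log2 scale, for Syt14 by 1.59 and for Syt10 by 1.91, higher in library 1. Green libraries 1 and 2, both titled as the right eye of number 11, lay 0.20 apart, and white library 2 and green library 1 lay farthest apart at 0.28.

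**Figure D5:**
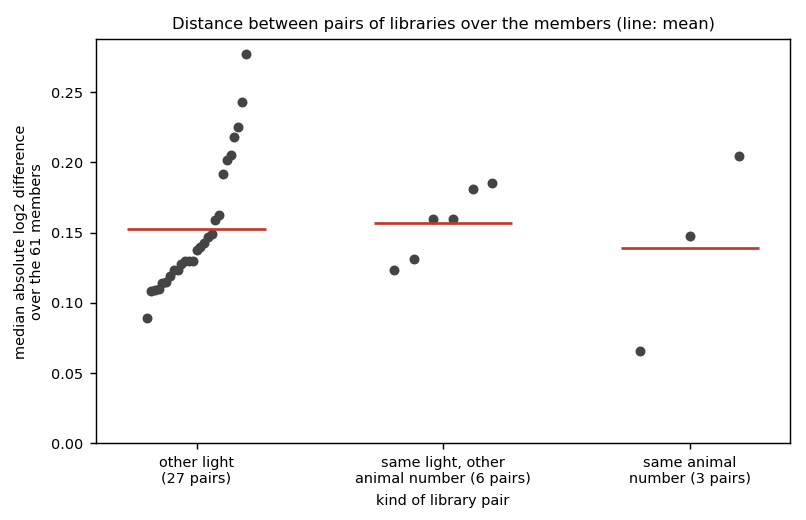
Median absolute log2 difference over the 61 members (vertical axis) for each pair of libraries (points), by kind of pair; red lines are means. The means are 0.15 for 27 pairs of other light, 0.16 for 6 pairs of the same light and other animal number, and 0.14 for 3 pairs with the same animal number.

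Other genes around the vesicle cycle, taken as 4 lists, also gave no gene past the adjusted threshold (edgeR). The active zone and priming list had 26 of 28 genes tested, with 1 at an unadjusted p under 0.05 in each comparison. These were Rims1, an active zone scaffold, at 0.24 ± 0.11 in green minus white (adjusted p = 0.852), Unc13a, the priming factor Munc13, at -0.18 ± 0.07 in blue minus white (adjusted p = 1.0) and Tprg1l at -0.22 ± 0.09 in green minus blue (adjusted p = 0.686). The share of 3.85% in each comparison stood against 5.81% of all genes in green against white, 4.45% in blue against white and 7.18% in green against blue. Of the 26, 12 lay above 0 in green minus white (46.2%, all genes 52.4%). In blue minus white 6 did (23.1%, all genes 51.5%), and in green minus blue 16 (61.5%, all genes 49.4%). The list of vesicle membrane and loading genes had 17 of 19 tested and 0 under 0.05 in each comparison. Synpr, a relative of synaptophysin, averaged 361 ± 14.4 CPM in blue and 326 ± 10.8 CPM in white (SD, n = 3 each), and the blue libraries lay above the white ones (edgeR adjusted p = 1.0).

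The retrieval list had 25 symbols, among them both Stonin2 and Ston2, with 24 tested and 0 under 0.05. Dnm1, the dynamin that cuts endocytic vesicles free, averaged 582 ± 78.5 CPM in green, 584 ± 45.2 CPM in blue and 504 ± 13.8 CPM in white (SD, n = 3 each), with log2 differences of 0.21 ± 0.10 in both comparisons with white, which share the white libraries (edgeR adjusted p = 0.854 and 1.0). All 24 other SNAREs and partners were tested. At an unadjusted p under 0.05 stood 1 in green against white, Gosr2, and 1 in blue against white, Sytl4. Each was 4.17% of the list, against 5.81% and 4.45% of all genes. In green against blue 0 stood there, against 7.18% of all genes. Gosr2, a Golgi SNARE that pairs with syntaxin 5, averaged 91.6 ± 2.64 CPM in green and 77.4 ± 2.74 CPM in white, without overlap, at 0.24 ± 0.08 (edgeR adjusted p = 0.814). Sytl4 stood at 0.56 ± 0.23 in blue minus white (edgeR adjusted p = 1.0).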

How the data were processed

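The data are counts per gene as the authors deposited them, 19962 genes by 9 libraries, per the file headers, with totals that differ between libraries. Low counts fall more often on multiples of 4 than on other values, so a unit may not be a single fragment. Retinal RNA was sequenced with paired ends, per the labels' protocols. The aligner, the counter with its strand setting and the build were not given in the sources used here, so reads shared by related members or antisense genes cannot be assigned with certainty. No sequences or coding lengths were used, and levels are not compared between genes. Values of 2 members are not reported here.

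All libraries entered 1 edgeR fit (4.0.16, R 4.3.3) with light as the only term: filterByExpr (minimum count 10, total 15), TMM, quasi-likelihood F tests, Benjamini-Hochberg adjustment over 15469 genes, threshold 0.05. The SE is the log2 difference over the root of F, and intervals are 95%. The code was tested on simulated data. Alternatives used DESeq2 1.42.0, voom of limma 3.58.1, other scalings, filters, covariates and sets of libraries. Values per library are given for the 6 smallest p per comparison, 18 genes of a core set of 20 and the 5 largest coefficients of variation; other members are given by range, and members whose libraries do not overlap were named after their values were seen. The members and lists were chosen with earlier results of these data known. Whether R-23 in blue and white names the same animal and what -B marks are not stated. 61 of 62 symbols match the names table of assembly mCavPor4.1.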

Additional observations from a re-analysis of the deposited data

How the results depend on the processing

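No member passed the adjusted threshold in any of 22 alternatives (the smallest adjusted p was 0.369, for both Syt5 and Cplx4 in green against blue in voom with a correlation within animal number, estimated at -0.174). Of 2307 repeats of a named member's difference, 2281 stayed within 1 SE and 26 did not. The cause of the following shifts was not tested. Genes passing in green against white numbered 1, against 24 in DESeq2, 10 without both -B libraries, and 0 in voom with or without that correlation, with the pigment epithelium covariate, with counts divided by 4 or in the 6 libraries alone. In blue against white 1 passed, against 28 in DESeq2, 12 without both -B libraries, 3 with -B as a covariate, and 0 in voom with or without the correlation, with counts divided by 4 or in the 6 libraries alone. In green against blue 0 passed, against 41 in DESeq2, 1 with -B as a covariate and 1 in the 6 libraries alone. In the joint test 1 passed, against 12 without both -B libraries, 2 with -B as a covariate, and 0 in both voom fits, with the pigment epithelium covariate, with counts summed per animal number or divided by 4. The joint test was not run in DESeq2 or in 6 libraries.

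Leaving out 1 library gave 0 to 6 genes passing in green against white, 0 to 7 in blue against white, 0 to 4 in green against blue and 0 to 6 in the joint test. The median log2 difference of the members in green minus white was -0.0106 with counts summed per animal number, and -0.00575 to 0.0670 on leaving out 1 library. Members at an unadjusted p under 0.05 in green against white were 5, against 1 with counts summed per animal, 2 with the pigment epithelium covariate, 1 without both -B libraries, 3 in the 6 libraries alone and 1 to 5 on leaving out 1 library. In blue against white they were 1 to 4 on leaving out 1 library, and in green against blue 0 with counts summed per animal, 0 with the pigment epithelium covariate, 1 without both -B libraries and 0 to 5 on leaving out 1 library. The share of all genes is not set beside these counts, and fewer libraries also leave less to estimate the spread. Some of these sets of libraries leave a group with 1 animal number, such as white without both -B libraries. That group's libraries then hold no spread between animals, though they were fitted as separate libraries. No paired analysis was possible because library numbers pair nothing across lights. With 3 libraries per light, differences of low members such as Syt8 and Syt15 are bounded loosely.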
